A study of Arabidopsis thaliana with 16 samples.

Results

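The cuticle and wax genes of the epidermis were followed here through 5 cell states of the Arabidopsis stomatal lineage, as open chromatin at the genes CER1 (AT1G02205), CER3 (AT5G57800), CER6 (AT1G68530), FDH (AT2G26250), DCR (AT5G23940), SHN1 (AT1G15360), MYB106 (AT3G01140) and MYB16 (AT5G15310). Their members are transposase hypersensitive sites (THSs), intervals in which the transposase of ATAC-seq cuts often. Every THS of the deposited table that overlaps 1 of these 8 genes, or the 2000 bp before its start, was taken. This gave 42 THSs of 65351 in the table, with 5 at CER1, 6 at CER3, 6 at CER6, 4 at FDH, 7 at DCR, 2 at SHN1, 8 at MYB106 and 4 at MYB16. At these genes the THSs were taken by position alone, without any measured value. The genes themselves were chosen with earlier results of these data known.

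Nuclei came from whole 3-day-old Col-0 seedlings grown in continuous light, by INTACT, in which a biotin-tagged nuclear envelope protein (NTF) lets the nuclei of a chosen cell type be pulled out with streptavidin. All lines carry the biotin ligase BirA under the ACT2 promoter. They differ in the promoter that drives NTF: AtML1 for protoderm (Proto, 3 libraries), SPCH for meristemoid mother cells (MMC, 3), MUTE for meristemoids (M, 4), FAMA for guard mother cells (GMC, 3) and GC1 for guard cells (GC, 3). A state is therefore the set of nuclei in which 1 promoter was active in selected transgenic lines, pooled over many seedlings, and neighbouring states overlap, since SPCH is also active in early meristemoids and AtML1 stays on at a low level in the lineage. As these are pools of nuclei, a lower value cannot tell fewer nuclei with an open site from a site that is less open in each nucleus.

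The cuticle is the lipid layer that seals the outer wall of the epidermis. It consists of cutin, a polyester of hydroxylated fatty acids, and of waxes made from very-long-chain fatty acids in the endoplasmic reticulum of epidermal cells. Guard cells keep a cuticle of their own, with ledges around the pore, so the genes that build it are used by both pavement and stomatal cells. CER1 and CER3 act together to turn very-long-chain acyl-CoAs into alkanes, the main wax of the stem. CER6 (KCS6) and FDH (FIDDLEHEAD, KCS10) belong to the 3-ketoacyl-CoA synthases that elongate fatty acids, and loss of FDH makes organs fuse. DCR is an acyltransferase needed to assemble cutin. SHN1 (WIN1) is an AP2/ERF factor that activates cuticle genes, and MYB106 (NOECK) and MYB16 (MIXTA) are MYB factors that act with it on the cuticle and on the shape of epidermal cells.

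The 42 THSs were spread over whole loci. In the gene models of RefSeq for TAIR10.1, 18 lay only before the gene start, 24 overlapped the gene, and 4 spanned the start, at CER3, CER6, FDH and MYB16. By their midpoints, 19 lay between genes, 11 in an untranslated exon, 6 in an intron, 5 in a coding exon and 1 in an exon of the non-coding gene AT5G02395 before MYB16. Of the 42, 11 also lay in the window of another protein-coding gene, and 3 overlapped a non-coding gene, THS_28187 and THS_28188 at MYB106 (the first of them also among the 11) and THS_53447, the strongest THS of MYB16. The signal of these THSs cannot be given to the cuticle gene alone. THSs were 150 to 1033 bp long, with 20 of them at the minimum of 150 bp and a median of 190 bp, against 230 bp over the whole table.

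**Figure D1:**
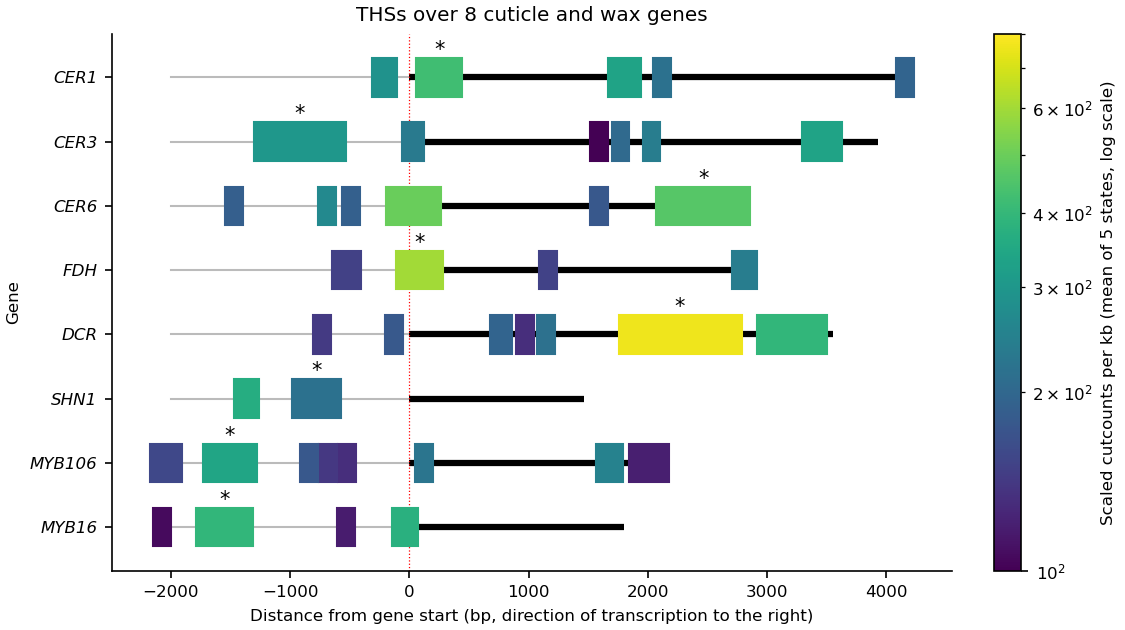
THSs at the 8 genes, by distance from the gene start in bp (x axis, transcription to the right) and by gene (y axis). Black bars are genes, grey lines the 2000 bp before them, boxes the THSs, coloured by scaled cutcounts per kb as the mean of 5 states on a log scale, and an asterisk marks the strongest THS of each gene. The brightest box, at 758 per kb, lies inside DCR, 2272 bp from its start.

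Of these sites the following stretches are shown because they hold the THSs that passed a test below, or an L1 box (TAAATGCA or TAAATGTA), the word bound by the HD-ZIP IV factors of the epidermis. Each is the longest part of the THS outside annotated exons, at DCR only the 200 bases of it next to the following exon, read from the TAIR10.1 reference of RefSeq on the strand of its gene, with both end positions included and the L1 box in capitals. The CER6 stretch of THS_14102 is chr1:25715025-25715218 on the minus strand and ends at the base before the gene start. The CER6 stretch of THS_14104 is chr1:25715641-25715791 on the minus strand, upstream of the gene, and its capitals read as the L1 box on the opposite strand. The FDH stretch is chr2:11173279-11173391 on the minus strand, directly before the start. The MYB16 stretch is chr5:4974061-4974211 on the plus strand, upstream of the gene. The CER3 stretch, chr5:23423587-23423661 on the plus strand, and the DCR stretch, chr5:8077615-8077814 on the minus strand, are intron.
CER6 THS_14102: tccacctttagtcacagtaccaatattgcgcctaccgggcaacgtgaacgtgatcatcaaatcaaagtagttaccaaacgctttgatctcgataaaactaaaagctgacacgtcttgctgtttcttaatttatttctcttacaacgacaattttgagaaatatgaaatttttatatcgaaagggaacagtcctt
CER6 THS_14104: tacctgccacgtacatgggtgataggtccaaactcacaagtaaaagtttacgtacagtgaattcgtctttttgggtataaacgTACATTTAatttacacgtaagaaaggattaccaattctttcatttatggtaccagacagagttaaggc
FDH THS_22006: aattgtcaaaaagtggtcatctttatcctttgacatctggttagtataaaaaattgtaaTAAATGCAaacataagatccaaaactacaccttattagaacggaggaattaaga
MYB16 THS_53448: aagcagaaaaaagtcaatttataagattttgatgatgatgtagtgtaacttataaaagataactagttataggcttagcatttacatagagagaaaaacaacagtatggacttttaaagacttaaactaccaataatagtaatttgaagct
CER3 THS_62657: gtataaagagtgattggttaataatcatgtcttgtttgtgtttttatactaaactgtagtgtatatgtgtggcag
DCR THS_55351: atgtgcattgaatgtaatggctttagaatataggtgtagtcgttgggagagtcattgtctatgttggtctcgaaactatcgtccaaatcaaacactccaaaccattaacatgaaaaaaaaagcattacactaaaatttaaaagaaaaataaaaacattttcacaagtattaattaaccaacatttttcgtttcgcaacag

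An L1 box was found on either strand in 3 of the 42 THSs, and in 4.13% of all THSs. At FDH it lay 50 bp before the gene start in the strongest THS of the gene, and 6.32% of the THSs of like length hold one. At CER6 it lay 680 bp before the start in THS_14104 and 1518 bp into the gene in THS_14101, where 2.20% of THSs of like length hold one. The shares of like length added over the 42 THSs come to 1.70. The palindrome CACGTG was found in 2 THSs, DCR THS_55351 and SHN1 THS_03590 (8.92% of all THSs, 3.69 by added shares), and GCCGCC, the word of AP2/ERF factors, in DCR THS_55351 alone (3.11% of all THSs, 1.41 by added shares). GAGAGAGA was in none of the 42 (7.59% of all THSs, 2.97 by added shares). A match is a run of letters and not a bound site. None of the matches overlapped another.

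Openness was measured as scaled cutcounts, the number of transposition events on a THS after the authors divided each library by a size factor. Library totals on THSs were 3412226 to 13596509 cutcounts, both in M, and intervals or floors from them would cover counting error only. Each INTACT promoter had its strongest THS above all other libraries in its own line, although the extra promoter copy of the transgene maps to the same place. Marker genes for epidermis, stomatal lineage, guard cell, trichome, mesophyll, vasculature and root were each read at their strongest THS. Genes without a THS were left out, which kept 2 for epidermis, 4 for guard cell and 3 for vasculature. None of those kept was at 0 in any library, but this way of choosing sites makes a 0 unlikely. The summed sites of 4 mesophyll genes ranged from 945 to 1073 in GMC and 1263 to 1562 in GC, against 1694 to 1962 in MMC and 994 to 2514 in M. The summed sites of 4 root genes ranged from 663 to 709 in GMC and 803 to 832 in GC, against 892 to 1016 in MMC and 713 to 1077 in M. For 3 vascular genes the sums ranged from 154 to 185 in GMC and 173 to 191 in GC. In MMC they ranged from 134 to 215, and in M from 130 to 197. For 3 trichome genes they ranged from 298 to 357 in GMC and 264 to 299 in GC. In MMC these were 297 to 342, and in M 296 to 355. The part of these marker sites in the results below was not tested. Libraries also differed in contrast, measured as the SD of log2 values over all THSs, which was 1.01 to 1.02 in GMC and 1.03 to 1.19 in GC, against 1.22 to 1.72 in MMC and 0.96 to 1.62 in M. M replicate 1 was the lowest of all at 0.96, with MMC replicate 3 at 1.72 and M replicate 4 at 1.62 the highest.

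All THSs of the 8 genes held cuts in all 5 states. No background level was set here, so this alone does not show that a site is open. No member THS was at 0 in any library, with single values from 3.11 to 1505 scaled cutcounts, and 34 of 42 had at least 10 in every library, as had 57536 of all THSs. The median THS of these genes had 38.3 scaled cutcounts as the mean of 5 states, below the 53.9 of all THSs. Per kb of THS, the genes stood in the order DCR (477 scaled cutcounts per kb), CER6 (387), FDH (346), CER1 (322), MYB16 (303), CER3 (269), SHN1 (266) and MYB106 (209). The means of the 5 states ran from 381 to 571 per kb at DCR, 315 to 486 at CER6, 271 to 448 at FDH, 282 to 365 at CER1, 252 to 349 at MYB16, 240 to 307 at CER3, 237 to 294 at SHN1 and 204 to 218 at MYB106. Neighbours in this order overlapped in these ranges, except that MYB106 lay below SHN1 in every state.

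No change against the protoderm was found at any of them. With MMC, M, GMC and GC together set against Proto, 0 of 42 THSs passed an adjusted p of 0.05 (limma, Benjamini-Hochberg over 65351 THSs), where 0.00918% of all THSs passed. At an unadjusted p under 0.05 there were 0 of 42 as well, against 3.10% of all THSs (limma). The log2 differences ran between -0.45 (SE 0.28, DCR THS_55352) and 0.47 (SE 0.27, CER6 THS_14105). GC alone against Proto also gave 0 of 42 (limma, 0.00765% of all THSs), with 0 at an unadjusted p under 0.05 (3.70% of all THSs), and differences between -0.54 (SE 0.29, FDH THS_22004) and 0.56 (SE 0.34, CER6 THS_14105). These counts were 0 in every alternative run. The standard errors, 0.18 to 0.43 for the first comparison, leave room for changes of that size.

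A test of all 5 state means gave the same outcome, with 0 of 42 THSs past the adjusted threshold and 2 at an unadjusted p under 0.05 (4.76%, against 24.9% of all THSs), CER6 THS_14102 (limma, adjusted p = 0.191) and FDH THS_22004 (adjusted p = 0.163). Of all 65351 THSs, 18 passed, or 0.0275%. The count among the members was 4 without M replicate 1 and 1 without MMC replicate 2, where 26.4% and 14.4% of all THSs passed.

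The study places the main turn of the lineage between M and GMC, so GMC and GC were set against MMC and M. Here 4 of 42 THSs of the cuticle genes passed, or 9.52%, against 33.3% of all THSs (limma, adjusted p under 0.05), and 9 had an unadjusted p under 0.05 (21.4%, against 46.6% of all THSs). Higher in GMC and GC were CER3 THS_62657 and MYB16 THS_53448, where 16.7% of all THSs were called higher. Lower were CER6 THS_14102 and DCR THS_55351, where 16.6% of all THSs were called lower. The median log2 difference of the 42 was 0.03, against 0.02 for the whole table, which moved to 0.13 with libraries scaled to equal totals. Of all THSs called, 50.3% were higher as deposited and 63.4% with equal totals. The 6 GMC and GC libraries overlapped the 7 MMC and M libraries at every one of the 42 THSs. Of all THSs, 1974 had no overlap, or 3.02%.

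The start of CER6, the elongase gene, was less open in GMC and GC as deposited, but after loess normalization the log2 difference was -0.12 (limma adjusted p = 0.558). THS_14102 (chr1:25714758-25715218) covers the gene start and the untranslated exon, with the upstream letters printed above. It had 248, 261 and 223 scaled cutcounts for Proto, 231, 203 and 260 for MMC, 154, 252, 388 and 480 for M, 151, 158 and 172 for GMC, and 203, 144 and 226 for GC. Apart from M replicate 1, no MMC or M library was under 203, and the 3 GMC libraries lay close together, between 151 and 172. The lowest, median and highest values were 144, 165 and 226 in GMC and GC, against 154, 252 and 480 in MMC and M. The log2 difference was -0.58 (SE 0.21, adjusted p = 0.0338). The single step to GMC from M gave -0.86 (SE 0.28, adjusted p = 0.0479), the only THS of 42 that passed in that comparison (2.38%, against 10.7% of all THSs, or 5.87% called lower). At an unadjusted p under 0.05 there were 12 of 42 in it, or 28.6%, against 34.9% of all THSs. No THS of the 42 passed in that comparison with a replicate block, after loess, with the SD of log2 values as a covariate, without trend and robust eBayes, with only M and GMC fitted, or without any 1 of 13 libraries, that is, all except MMC replicates 2 and 3 and M replicate 1.

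The strongest site of the 8 genes, inside the cutin gene DCR, was also lower in GMC and GC as deposited, though not after loess normalization, where the log2 difference was 0.11 (limma adjusted p = 0.276). THS_55351 (chr5:8077078-8078111) is 1033 bp long, is centred in a coding exon, and lies at percentile 99.8 of all THSs by level. Values were 658, 697 and 815 scaled cutcounts for Proto, 890, 780 and 1133 for MMC, 502, 1115, 899 and 1505 for M, 518, 605 and 567 for GMC, and 676, 667 and 730 for GC. All 6 GMC and GC libraries lay below the 3 MMC libraries, and only M replicate 1 was lower still. The lowest, median and highest were 518, 636 and 730 in GMC and GC, against 502, 899 and 1505 in MMC and M. The log2 difference was -0.57 (SE 0.21, adjusted p = 0.0399), and GMC minus M gave -0.73 (SE 0.29, adjusted p = 0.0834), which did not pass. This THS also lies in the window of AT5G23930.

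A site in the gene body of CER3, the partner of CER1 in alkane synthesis, was more open in GMC and GC as deposited. Its call was lost after loess normalization, although the log2 difference there, 0.87, was larger than as deposited. The call was also lost with the SD of log2 values as a covariate, where the difference was 0.10. The adjusted p values are given below. THS_62657 (chr5:23423481-23423816) is centred in an intron 3464 bp into the gene. Its longest part outside annotated exons is only the 75 bases printed above. It had 102, 117 and 123 scaled cutcounts for Proto, 88.0, 154 and 37.3 for MMC, 118, 94.8, 75.6 and 75.1 for M, 144, 122 and 121 for GMC, and 136, 131 and 127 for GC. The GMC and GC libraries kept within 121 to 144, and the early ones spread on both sides, with MMC replicate 3 lowest and MMC replicate 2 highest of all 16. The log2 difference was 0.62 (SE 0.21, adjusted p = 0.0314).

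A weak site before MYB16 rose by the most as deposited. This call, too, was lost after loess normalization and with the SD of log2 values as a covariate. THS_53448 (chr5:4974061-4974211), 535 bp before the start of this MYB factor, had 24.4, 15.3 and 18.9 scaled cutcounts for Proto, 12.6, 18.7 and 3.11 for MMC, 18.2, 18.0, 8.17 and 5.52 for M, 20.9, 25.4 and 24.4 for GMC, and 17.8, 30.4 and 13.8 for GC. Its lowest values were again MMC replicate 3 and M replicate 4, the libraries of highest contrast. The lowest, median and highest were 13.8, 22.7 and 30.4 in GMC and GC, against 3.11, 12.6 and 18.7 in MMC and M. The log2 difference was 1.004 (SE 0.35, adjusted p = 0.0295), on values that put the site at percentile 3.23 of all THSs.

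**Figure D2:**
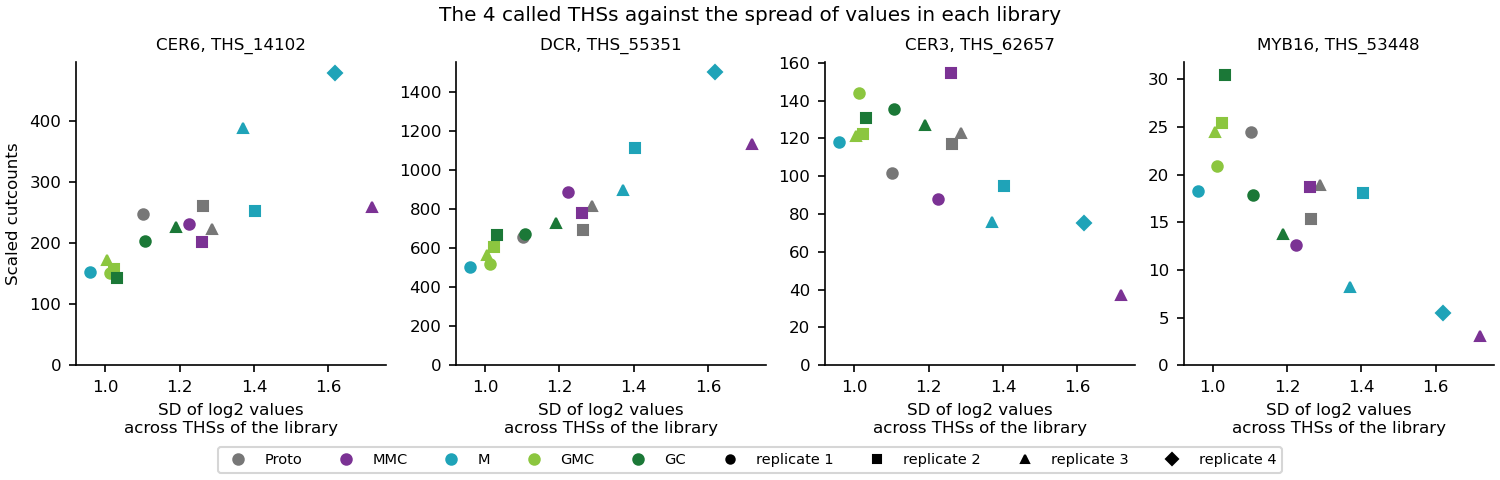
The 4 THSs that passed in the comparison of GMC and GC with MMC and M, as scaled cutcounts (y axis) in the 16 libraries by the SD of log2 values over all THSs of that library (x axis), with colours for states and shapes for replicates. M replicate 4, with an SD of 1.62, has the highest values at CER6 and DCR, 480 and 1505, and MMC replicate 3, with an SD of 1.72, the lowest at CER3 and MYB16, 37.3 and 3.11.

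These 4 calls changed with the contrast of the libraries and with the libraries used. With the SD of log2 values as a covariate, an alternative added after seeing the data, 0 of 42 THSs passed, as did 0.00918% of all THSs, and the log2 differences were -0.07 at CER6 THS_14102, -0.04 at DCR THS_55351, 0.10 at CER3 THS_62657 and 0.08 at MYB16 THS_53448 (limma adjusted p of 0.947 to 0.973). SD and state go together, so their parts cannot be told apart. After cyclic loess normalization the differences were -0.12 at CER6 (limma adjusted p = 0.558), 0.11 at DCR (adjusted p = 0.276), 0.87 at CER3 (adjusted p = 0.0624) and 0.57 at MYB16 (adjusted p = 0.137). The CER6 call was lost without any 1 of MMC replicates 1 and 3, M replicates 3 and 4, GMC replicates 1, 2 and 3, and GC replicates 1 and 2 (adjusted p of 0.0508 to 0.103), with differences of -0.60 to -0.46. DCR was lost without any 1 of 12 libraries, that is, all except Proto replicates 1 and 3, MMC replicate 2 and M replicate 1 (adjusted p of 0.0514 to 0.110), with differences of -0.60 to -0.46. CER3 was lost without any 1 of MMC replicate 3, M replicates 3 and 4, GMC replicates 1 and 3, and GC replicates 1 and 2 (adjusted p of 0.0503 to 0.145), with differences of 0.35 to 0.64, and MYB16 without these or GMC replicate 2 (adjusted p of 0.0513 to 0.112), with differences of 0.67 to 1.04. The count of member THSs called was 13 without M replicate 1, with 4 higher and 9 lower (48.4% of all THSs), 7 without MMC replicate 2 (41.0%), and 0 without MMC replicate 3, M replicate 3, M replicate 4, GMC replicate 3 or GC replicate 1 (16.2% to 28.2%). It was 1 without GMC replicate 1 (17.6%), GMC replicate 2 (26.8%) or GC replicate 2 (20.8%). All 4 calls were lost without GMC replicate 1 or GC replicate 2, so the 1 THS called there was another. For GMC against M the count was 15 without M replicate 1 (38.6% of all THSs), 4 without MMC replicate 3, 3 without MMC replicate 2 and 0 without any other library. Shares of all THSs are not given for the counts of 4 and 3, so these cannot be set against the whole table.

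Strong and weak sites of the cuticle genes differed in direction, as did those of the whole table, in the values as deposited. Of the 10 THSs with 100 or more scaled cutcounts as the mean of 5 states, 1 was higher in GMC and GC, with a median log2 difference of -0.35. Of the 25 THSs under 50, 20 were higher, with a median of 0.22, and of the 7 between, 1 was higher, with a median of -0.20. Over all THSs the medians of these classes were -0.44, 0.34 and -0.07, with 12.0%, 76.8% and 43.7% higher, the same order as in the members. With libraries scaled to equal totals 1 of the 10 strong and 23 of the 25 weak THSs were higher, where 17.3% and 83.5% of all THSs were. After cyclic loess normalization 9 of the 10 strong THSs were higher, with a median of 0.11, and 6 of the 25 weak ones, with a median of -0.12. Over all THSs the loess shares were 45.8% for strong sites, with a median of -0.025, and 49.9% for weak ones, with a median of -0.00070. The difference of the members from the table there was not tested. The class bounds of 50 and 100 were chosen after the values were seen.

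**Figure D3:**
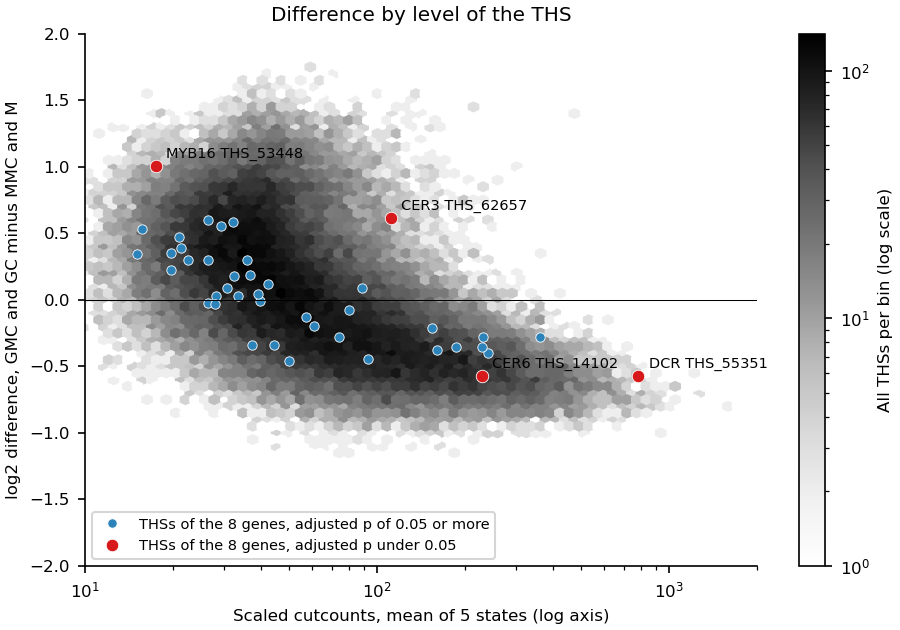
The log2 difference of GMC and GC minus MMC and M (y axis) by the level of the THS in scaled cutcounts, mean of 5 states (x axis, log scale), for all 65351 THSs as grey bins with a log count scale and the 42 THSs of the 8 genes as points. Red points are the 4 that passed, CER6 and DCR below 0 at 229 and 783 scaled cutcounts, and CER3 and MYB16 above 0 at 112 and 17.6.

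The other strongest sites of the genes did not pass. At CER1, THS_00341 (chr1:418476-418856), centred in an untranslated exon 250 bp into the gene, had 91.7, 148 and 169 scaled cutcounts for Proto, 180, 192 and 212 for MMC, 129, 186, 200 and 205 for M, 156, 122 and 104 for GMC, and 145, 158 and 186 for GC. The 3 MMC libraries lay above every Proto value, while M and GC overlapped them. The difference of GMC and GC minus MMC and M was -0.37 (SE 0.17, limma adjusted p = 0.0932), and -0.45 (adjusted p = 0.0195) without M replicate 1. At CER3, the broad THS_62652 (chr5:23418881-23419651), 918 bp before the start, had 245, 232 and 223 for Proto, 264, 170 and 223 for MMC, 217, 265, 309 and 378 for M, 207, 174 and 222 for GMC, and 214, 249 and 170 for GC. M replicates 3 and 4, at 309 and 378, were the highest of the 16, and the difference was -0.28 (SE 0.17, adjusted p = 0.197), opposite in sign to THS_62657 of the same gene.

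At CER6 the strongest site lay at the far end of the gene. THS_14100 (chr1:25712166-25712951), which reaches past the 3′ end of the gene and is centred in an untranslated exon, and lies also in the windows of AT1G68520 and AT1G68526, had 423, 335 and 334 scaled cutcounts for Proto, 383, 324 and 359 for MMC, 311, 367, 458 and 647 for M, 272, 286 and 336 for GMC, and 319, 343 and 380 for GC. M replicate 4 stood far above the rest and M replicate 1 below all MMC libraries. The difference was -0.28 (SE 0.18, limma adjusted p = 0.217), and -0.36 (adjusted p = 0.0438) without M replicate 1. FDH THS_22006 (chr2:11172992-11173391), which spans the start and holds the L1 box, had 213, 271 and 276 for Proto, 234, 215 and 279 for MMC, 129, 276, 368 and 444 for M, 181, 152 and 184 for GMC, and 210, 187 and 275 for GC. All 3 GMC libraries lay below every Proto and MMC library, but M replicate 1 was lower than any of them. Its difference of -0.40 (SE 0.21) had an adjusted p of 0.136, and 0.00276 without M replicate 1, where it was -0.58.

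None of the strongest sites of the 3 regulators passed. SHN1 THS_03591 (chr1:5282281-5282691), 782 bp before the start, had 133, 108 and 72.9 scaled cutcounts for Proto, 89.8, 88.6 and 70.03 for MMC, 79.7, 96.3, 83.8 and 68.5 for M, 71.4, 107 and 92.7 for GMC, and 74.0, 81.9 and 104 for GC. All 5 states overlapped, with a difference of 0.09 (SE 0.17, limma adjusted p = 0.683). MYB106 THS_28192 (chr3:49577-50029), 1507 bp before the start and also in the window of AT3G01150, had 138, 139 and 163 for Proto, 146, 138 and 244 for MMC, 128, 191, 159 and 167 for M, 146, 138 and 147 for GMC, and 124, 136 and 166 for GC. Only MMC replicate 3 stood apart, and the difference was -0.21 (SE 0.17, adjusted p = 0.315). MYB16 THS_53447 (chr5:4972881-4973356), 1553 bp before the start, had 174, 202 and 172 for Proto, 209, 187 and 212 for MMC, 127, 190, 186 and 398 for M, 164, 144 and 115 for GMC, and 157, 182 and 206 for GC. M replicates 1 and 4 held the second lowest and the highest of the 16 values, and the difference was -0.36 (SE 0.20, adjusted p = 0.151). Without M replicate 1 it was -0.47 with an adjusted p of 0.0205.

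**Figure D4:**
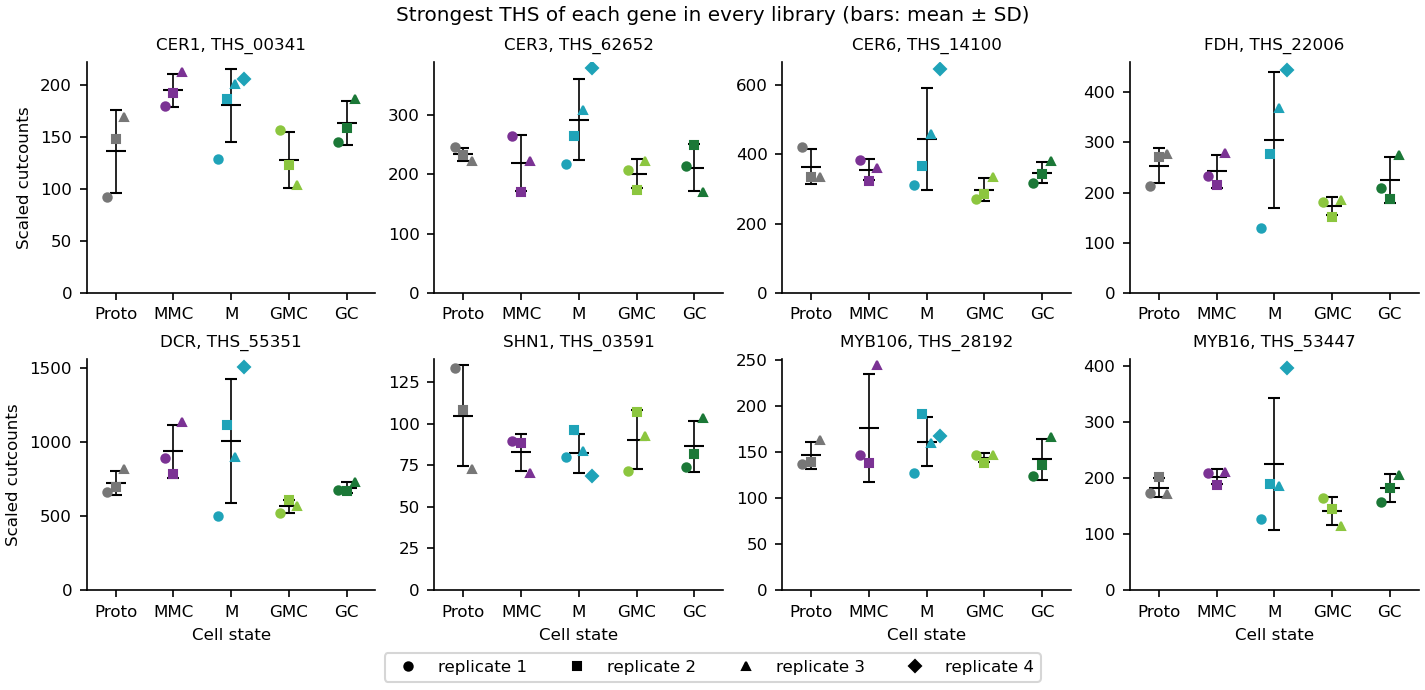
Strongest THS of each of the 8 genes in scaled cutcounts (y axis, from 0) by cell state (x axis), with a point per library, its replicate number as the shape, and bars for mean ± SD. GMC has the lowest mean for CER1, CER3, CER6, FDH, DCR and MYB16, and M replicate 4 the highest value for CER3, CER6, FDH, DCR and MYB16, up to 1505 at DCR.

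Summed over all THSs of a gene, the size of the difference between states varied from locus to locus. The highest state mean was 1.06 times the lowest at MYB106, 1.24 at SHN1, 1.28 at CER3, 1.29 at CER1, 1.38 at MYB16, 1.501 at DCR, 1.54 at CER6 and 1.65 at FDH. FDH had 362 ± 14.6 scaled cutcounts for Proto, with 342 ± 34.3 for MMC and 452 ± 172 for M, then 273 ± 11.4 for GMC and 318 ± 26.2 for GC (SD, n = 3, 4 in M). M held the highest mean for 7 of the 8 genes, all except SHN1, and the largest SD for all 8. MYB106 had 385 ± 15.5 for Proto, with 396 ± 15.8 for MMC and 409 ± 38.0 for M, then 388 ± 8.10 for GMC and 389 ± 4.56 for GC, the smallest spread of means of the 8. SHN1 had 181 ± 6.22 for Proto, with 160 ± 19.5 for MMC and 169 ± 26.5 for M, then 162 ± 4.72 for GMC and 146 ± 23.8 for GC, the only gene with its highest mean in Proto.

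In the sums, DCR was lower in GMC and GC than in MMC and M and was the only gene of 8 that passed, or 12.5%, against 38.4% of 24737 genes, of which 27.3% were called lower (limma). DCR had 917 ± 48.7 scaled cutcounts in GMC and 1043 ± 28.9 in GC, against 1319 ± 195 in MMC and 1375 ± 457 in M, a log2 difference of -0.42 (SE 0.16, adjusted p = 0.0419). The other 7 did not pass, with FDH at -0.37 (SE 0.16, adjusted p = 0.0723), CER1 at -0.25 (SE 0.11, adjusted p = 0.0661) and CER6 at -0.33 (SE 0.15, adjusted p = 0.0880) nearest to the threshold. All 8 sums had a negative difference, but 5 of 8 with libraries scaled to equal totals and 3 of 8 after loess normalization, and the median gene stood at -0.17 as deposited, -0.05 and -0.01. For DCR the difference was -0.31 (adjusted p = 0.0585) with equal totals and 0.06 (adjusted p = 0.418) after loess. Without M replicate 1, 4 of the 8 sums passed, all lower (56.2% of all genes), 1 passed without Proto replicate 1 or MMC replicate 2, and 0 passed without any 1 of the other 13 libraries. For GMC against M 0 of 8 sums passed (limma, 14.1% of all genes), with 4 at an unadjusted p under 0.05 (40.3% of all genes). For the 5 state means 0 of 8 passed (limma, 0.0323% of all genes), with 0 at an unadjusted p under 0.05 (26.0% of all genes), and 4 passed without M replicate 1 (37.7%). Against Proto, 0 of 8 sums passed for the lineage and for GC alone (limma, 0.00809% and 0.0121% of all genes), with 0 at an unadjusted p under 0.05 in both (3.32% and 3.02% of all genes).

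The other sites within each gene did not all follow the strongest one. At DCR, 5 of the 7 THSs had a positive difference between GMC and GC and MMC and M, all of them under 50 scaled cutcounts, against negative values at the 2 strong sites in the gene body, THS_55351 and THS_55350 (-0.35, SE 0.18, limma adjusted p = 0.118). The weak site before the DCR start, THS_55355, had 39.0 ± 12.3 in GMC (SD, n = 3), against 19.0 ± 11.1 in M (SD, n = 4), with a difference of 1.24 (SE 0.43, adjusted p = 0.0556). At CER1, THS_00342 in the gene had -0.44 (SE 0.18, adjusted p = 0.0514) between GMC and GC and MMC and M, the nearest to the threshold of those that missed it. At the start of MYB16, THS_53449 had 88.4 ± 2.37 for Proto, with 70.03 ± 11.6 for MMC and 92.6 ± 40.6 for M, then 64.7 ± 13.6 for GMC and 87.0 ± 22.8 for GC, with -0.07 (SE 0.19, adjusted p = 0.779).

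For each strongest THS, the THS outside these windows with the most similar values over the 16 libraries was found by Pearson's r. It is named only by the nearest start of a protein-coding gene, from 40 bp (EIL1) to 2142 bp (AT1G52120) from its midpoint. This distance was 1782 bp for MYB21 and 1586 bp for AGL66. The most similar were THS_58178 at AT5G42060 for CER1 (r = 0.945), THS_27523 at PIP1B for CER3 (0.928), THS_24846 at ProT3 for CER6 (0.936), THS_34878 at MYB21 for FDH (0.960), THS_22234 at EIL1 for DCR (0.981), THS_10093 at AT1G52120 for SHN1 (0.875), THS_16993 at AGL66 for MYB106 (0.922) and THS_58758 at AT5G44020 for MYB16 (0.950). DCR THS_55351 had an r over 0.9 with 2412 THSs, and SHN1 THS_03591 with none. Among the 8 strongest THSs themselves, r over the 28 pairs ran from -0.55 (CER1 with SHN1) to 0.85 (FDH with DCR), with a median of 0.58, and all 7 pairs with SHN1 were negative. Libraries share their contrast and state in every pair, so these values describe likeness only.

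Other genes of wax and cutin synthesis, export and control had 44 sites lower and 20 higher in GMC and GC as deposited, or 19.8% and 9.01% of their THSs, where 16.6% of all THSs were called lower and 16.7% higher. Of 48 such genes 47 had a THS, 222 in all, and none of these was a member. Between GMC and GC and MMC and M, 64 of 222 passed, or 28.8%, with 20 higher and 44 lower, near the 33.3% of all THSs, and the difference from the 9.52% of the 8 genes was not tested. The direction went with level, as in the whole table. Of their 74 THSs with 100 or more scaled cutcounts, 31 were called lower and 1 higher, against 7387 and 644 of 16408 such THSs in all. Of their 86 under 50, 1 was called lower and 12 higher, against 637 and 7165 of 30144 in all. Higher were THS_25328 in the cutin acyltransferase gene GPAT6 (1.09, SE 0.23, limma adjusted p = 0.00495), THS_48226 in an intron of the alcohol-forming reductase gene CER4 (1.07, SE 0.29, adjusted p = 0.0107), THS_39864 in the window of the HD-ZIP IV gene HDG1 but centred in a coding exon of FUS6 (0.81, SE 0.22, adjusted p = 0.0120) and THS_27529 in the fatty acid hydroxylase gene CYP86A8 (0.81, SE 0.21, adjusted p = 0.00922). CER4 THS_48226 had 27.1, 28.2 and 32.2 scaled cutcounts as lowest, median and highest in GMC and GC, against 6.13, 11.7 and 25.6 in MMC and M, without overlap. Lower were THS_22203 at the start of the cutin transporter gene ABCG32 (-0.92, SE 0.19, adjusted p = 0.00508), THS_58654 before the elongase gene KCS20 (-0.90, SE 0.21, adjusted p = 0.00688), and THS_35198 and THS_35202 of MYB30, an activator of fatty acid elongation (-0.87, SE 0.22, adjusted p = 0.00861, and -0.82, SE 0.22, adjusted p = 0.0104). ABCG32 THS_22203 had 105, 137 and 227 in GMC and GC, against 170, 274 and 440 in MMC and M, and KCS20 THS_58654 had 114, 160 and 194 in GMC and GC, against 156, 305 and 492 in MMC and M. Over all their calls, MYB30 had 4 THSs lower and KCS20 had 3 lower, and CER4 had 2 higher and GPAT6 had 1 higher. ABCG32 had 2 THSs higher and 2 lower, and CYP86A8 and HDG1 each had 1 higher and 1 lower.

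For GMC against M, 33 of the 222 passed, or 14.9%, against 10.7% of all THSs, with 5 higher and 28 lower, where 4.79% and 5.87% of all THSs were called. None passed over the 5 state means, in the lineage against Proto or in GC against Proto, with 55, 11 and 6 at an unadjusted p under 0.05 (limma). These are 24.8%, 4.95% and 2.70% of the 222, against 24.9%, 3.10% and 3.70% of all THSs. In gene sums 20 of 47 passed between GMC and GC and MMC and M, with 2 higher and 18 lower, or 42.6%, against 38.4% of all genes, with 11% higher and 27.3% lower. These counts also moved with single libraries and with scaling, in alternatives added after seeing the data. Among the 222 THSs, 106 passed without M replicate 1 (30 higher and 76 lower), or 47.7%, against 48.4% of all THSs. The counts were 29 without MMC replicate 3 (13.1%, against 16.2% of all THSs), 34 without M replicate 4 (15.3%, against 21.5%), 30 without GMC replicate 1 (13.5%, against 17.6%), 41 without GC replicate 1 (18.5%, against 19.9%) and 39 without GC replicate 2 (17.6%, against 20.8%). After loess 30 passed, 12 higher and 18 lower (13.5%, against 16%), and with the SD covariate 0 passed, where 0.00918% of all THSs did. The list thus moved with the whole table. In gene sums 34 of 47 passed without M replicate 1 (72.3%, against 56.2% of all genes), 4 without MMC replicate 3 (8.51%, against 14.1%) or GC replicate 2 (20.1% of all genes), 7 without GMC replicate 1, GMC replicate 3 or GC replicate 1 (14.9%, against 19.5%, 25.9% and 23.7%), 10 without M replicate 3 (21.3%, against 31.6%), 13 without M replicate 4 or GMC replicate 2 (27.7%, against 27.6% and 30.4%), and 0 with the SD covariate (0.0243% of all genes). After loess normalization 8 sums were higher and 2 lower, where 14.3% of all genes were higher and 12.8% lower. With equal totals 3 were higher and 10 lower, where 16.1% and 19.2% of all genes were.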

How the data were processed

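INTACT ATAC-seq values were deposited by the authors for 65351 THSs and 16 libraries in 5 states, grouped by their labels. According to the methods, the authors used bowtie2 on TAIR10, left out centromeric reads, joined MACS2 peaks of the states to known open regions, counted fragment ends in each interval with bedmap and divided each library by a DESeq2 size factor. The deposited signal is therefore a scaled cutcount. In every library 99.9969% to 100% of the values were whole multiples of 1 step, within 0.02 of a step. Impulse fits were not repeated, and a further value column, 1 in number, which matches no sample, was not used. Replicates are separate biological samples by the methods, with no further origin given.

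Genes and starts were taken from RefSeq's annotation of TAIR10.1 and can differ from older TAIR10 models. All 65351 THSs lie within its chromosomes. THS coordinates are as deposited. THSs overlapping the gene or the 2000 bp before it were members. Values were tested as log2(scaled cutcount + 1), so differences of low sites are understated, with no filter, in limma 3.58.1 (R 4.3.3, data.table version 1.17.8): 5 state means over 16 libraries, eBayes with trend and robust, Benjamini-Hochberg over all THSs, or over 24737 genes for sums, threshold 0.05. In 8 of the libraries the smallest value above 0 was 2 steps, so 1 cutcount was not seen there by itself, and a count test was not run. Named THSs are the strongest of each gene, every member past a threshold, and for the 48 other wax and cutin genes the 4 largest differences in each direction that passed. Others were named after their values were seen. The members and lists were chosen with earlier results of these data known. Words were searched on both strands, and shares of like length are over all THSs within 10% of the member's length. These steps and the plots ran in Python 3.11.15 (pandas 2.3.3, numpy 2.4.6, matplotlib 3.10.9). Alternatives were other pseudocounts, a low-value filter, loess, equal totals, a replicate block, covariates, eBayes without trend and robust, only the states compared, and libraries left out.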

Additional observations from a re-analysis of the deposited data

Results flagged for a closer look

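In the 4 M libraries, the summed THSs of SHN1 were tested for a library far from the others, as were 18 other values of the 8 genes, 19 in all. SHN1 in M replicate 1 had 129.62 scaled cutcounts, against 186, 182 and 180 in M replicates 2, 3 and 4. Its gap to the nearest of them was 0.9004 of the range, above Dixon's critical value for 4 samples. Chance passes this limit in about 5% of groups. M replicate 1 was also the library with the smallest SD of log2 values, 0.96.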

How the results depend on the processing

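Counts against Proto, for the lineage and for GC, were 0 in all alternatives run. For GMC and GC against MMC and M, 4 of 42 THSs (9.52%, against 33.3% of all THSs) became 1 after loess normalization (16% of all THSs), 2 when only the states compared were fitted (27.3%), 0 with the SD covariate (0.00918%), and 8 (1 higher, 7 lower) with M replicates 1 and 4 and MMC replicate 3 left out together (32.1%), an alternative added after seeing the data. With equal totals 4 passed, 3 higher and 1 lower (32.2% of all THSs), and these were not all the same THSs as before. The 1 THS that passed after loess was none of the 4 called as deposited. For GMC against M, 1 THS (10.7% of all THSs) became 2 with a pseudocount of 5 (13.2%), 13 with the share of cutcounts in the strongest 5% of THSs as a covariate (34.0%), 11 without those 3 libraries (33.4%), and 0 after loess (3.62%), with the SD covariate (0.00612%), without trend and robust (0.00765%), or with only M and GMC fitted (8.85%). For 5 state means, 0 (0.0275% of all THSs) became 1 with the share covariate (17.3%) and 4 without the 3 libraries (22.8%). For gene sums, 1 of 8 between GMC and GC and MMC and M (38.4% of all genes) became 0 with loess (27.0%), equal totals (35.3%), the share covariate (32.4%), the SD covariate (0.0243%) or only the states compared (31.1%), and 4 without the 3 libraries (42.6%), where 4 also passed over 5 means (34.0%), against 0 (0.0323%). Leaving out 1 library at a time gave 0 to 4 THSs for the 5 means, 0 to 13 for GMC and GC against MMC and M, 0 to 15 for GMC against M, 0 to 4 gene sums for 5 means and 0 to 4 gene sums for GMC and GC against MMC and M. With 4 libraries at most in a state, 1 library decides many of these counts.

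Replicate numbers gave no clear pairing of the libraries. Over 30 pairs of libraries with the same number, the correlation of deviations from the state means was -0.22 to 0.40 with a median of 0.02, and 9 were over 0.1. Over 72 pairs with different numbers it was -0.67 to 0.63 with a median of -0.03, and 15 were over 0.1. M replicate 4 is the only library with that number, so a replicate block fits it by itself and it adds nothing to the comparison of states. With a replicate block, member counts were 4 for GMC and GC against MMC and M, 0 for GMC against M (402 of all THSs), 0 against Proto, 0 for GC against Proto and 0 for 5 means (3057 of all THSs), and gene sums gave 1 and 0. Shares over all THSs or genes are not given for the 4 THSs or the gene sums, so these counts cannot be set against the whole table.

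Signs turned at several strongest THSs for GMC and GC minus MMC and M. After loess the log2 difference was 0.0068 at CER1 THS_00341, 0.28 at CER6 THS_14100, 0.067 at FDH THS_22006, 0.16 at MYB106 THS_28192, 0.059 at MYB16 THS_53447, 0.11 at DCR THS_55351 and 0.19 at CER3 THS_62652. With the SD covariate it was -0.053 at SHN1 THS_03591, 0.20 at FDH THS_22006, 0.12 at MYB106 THS_28192 and 0.069 at MYB16 THS_53447, and without the 3 libraries -0.035 at SHN1 THS_03591. None of these had an adjusted p under 0.05 (limma), and the cause was not tested.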
